A study of Bos taurus with 6 samples.

Results

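The actin cytoskeleton gene set comprised 45 named genes, namely the actins, the proteins that bind, bundle and sever actin filaments, the contractile proteins, and the transcription factor SRF with cofactors linked to it. A gene was taken where the symbol field of the deposited table names it, with the brightest transcript cluster if several do. This gave 43 measured genes, each read by 1 cluster, among 24415 clusters in all. The symbol field of 40 of them holds that symbol alone. ACTA2 and LMOD1 share theirs with an unnamed locus and ACTG1 with the microRNA gene MIR3533, so the 3 values may include other transcripts. TPM1 and FLNC were not analysed here.

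The cells were primary bovine granulosa cells, the steroid-producing cells that line the ovarian follicle, aspirated from follicles of cattle ovaries. They were kept for 4 days in a serum-free medium with FSH, IGF1 and androstenedione on collagen-coated plates. Treatment took place on day 2 and lasted 2 h, with the vehicle DMSO or with 50 μM PD98059, an inhibitor of MEK that blocks phosphorylation of the kinase ERK. According to the labels, 70% of the medium was then replaced, whereas the methods describe fresh medium without inhibitor, so it is not settled how much inhibitor stayed. Each group had 3 cultures, and each culture was read by 1 array. The cultures were seeded from cryopreserved cells, and no source says whether the replicates came from separate animals or pools, so each p-value refers to the variation among these 6 cultures.

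Actin is present in cells as single subunits and as filaments, and the balance between these forms is read by the transcription factor SRF. Subunits that are not in filaments bind the myocardin-related factors MRTFA and MRTFB and keep them from the nucleus, and filament growth frees them to join SRF on DNA. SRF also works with the ternary complex factors ELK1, ELK3 and ELK4, which ERK phosphorylates. Genes that SRF is known to control in muscle and connective tissue include many actins, calponins, tropomyosins and adhesion proteins. In cultured rat granulosa cells, FSH is known to reorganize actin filaments and round up the cells.

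All values below are log2 signals that the authors made with the Robust Multichip Average (RMA) method, listed in the order of replicates 1, 2 and 3. All fold changes are PD98059 minus DMSO on the log2 scale, from limma, a moderated linear model fitted to all clusters. A gene passed the threshold at a two-sided Benjamini-Hochberg adjusted p under 0.05 and a fold above 1.4, which is 0.49 on the log2 scale. Array medians ran from 4.68 to 4.74. A mean level up to log2 3.70, the 95th percentile of 364 olfactory receptor clusters, is called near background. The arrays read RNA per unit of total signal, so fewer cells of a type and less RNA per cell cannot be told apart.

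PD98059 lowered 5 of the 43 measured genes and raised 1. The lower ones were the filament-binding proteins TAGLN, TAGLN2, CNN1 and NEXN and the adaptor protein PDLIM7, with folds of 1.48 to 1.82, and the higher one was the profilin PFN2 with a fold of 1.57. These are 11.6% and 2.33% of the genes. Among all clusters, 1.78% were lower and 0.909% were higher by the same rule, and among the 15353 clusters above background 2.72% and 1.33%. With the adjusted p alone, 11 genes were lower and 2 were higher, against 2.82% and 1.72% of all clusters and 4.34% and 2.53% of those above background. That larger count was sensitive to the number of arrays, since it fell to 3 or 4 lower genes and 0 to 2 higher genes when any single array was left out. Without DMSO replicate 1, the count past both limits was 3 lower and 0 higher.

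Small negative fold changes were frequent among the other genes of the set. The median log2 fold change was −0.13 over the 43 genes and 0.01 over all clusters, and 31 of the 43 values were below 0, or 72.1%, compared with 46.4% of all clusters and 49.2% of those above background. In 23 genes every PD98059 array lay below every DMSO array, and in 5 genes every PD98059 array lay above, against 13.0% and 12.6% of all clusters and 18.3% and 15.6% of those above background. Per array, the median deviation of the 43 genes from their DMSO means was −0.17, −0.14 and −0.13 in the PD98059 cultures and −0.02, −0.01 and 0.02 in the controls. All treated cultures thus lay on the same side of the controls. Because the members share functions and were chosen with earlier results of these arrays known, these counts are a description of the list without a test.

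**Figure D1:**
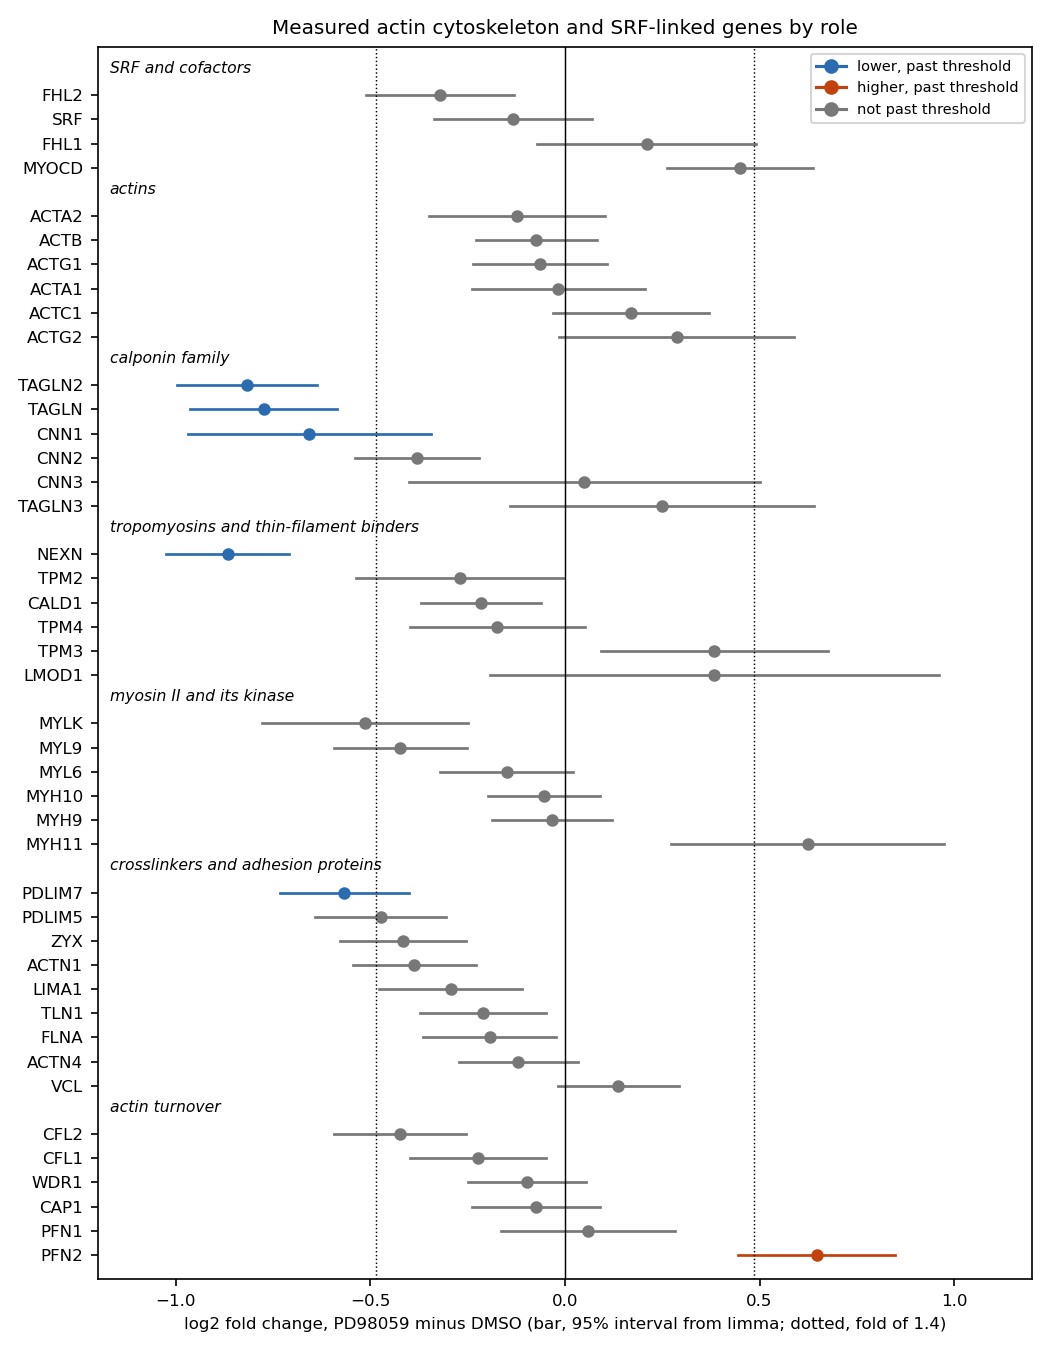
Log2 fold change (PD98059 minus DMSO, 3 arrays per group) of the 43 measured genes, grouped by role, with 95% intervals from limma; dotted lines mark a fold of 1.4. The 5 genes in blue lie from −0.87 to −0.57 and PFN2, in orange, at 0.65, while the 6 actins lie between −0.12 and 0.29.

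SRF itself did not pass the threshold. Its transcript read 7.11, 7.14 and 7.23 in the DMSO cultures and 6.90, 7.15 and 7.03 in the PD98059 cultures, so that the groups overlapped. The log2 fold change was −0.13, with a 95% interval of −0.34 to 0.07. MYOCD, or myocardin, the SRF cofactor of heart and smooth muscle, stood at 4.48, 4.65 and 4.45 with DMSO and at 4.96, 4.94 and 5.03 with PD98059. All treated cultures were above all controls, and the log2 fold change of 0.45 (standard error 0.079, limma adjusted p = 0.0284) lay inside the fold limit. Its adjusted p ran from 0.0406 to 0.111 when single arrays were left out, and without DMSO replicate 2 it passed both limits, with a log2 fold change of 0.51.

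FHL1 and FHL2 are LIM-domain proteins of muscle and connective tissue, and FHL2 can bind SRF. FHL2 had values of 7.61, 7.63 and 7.47 in controls and of 7.24, 7.34 and 7.17 after PD98059. These ranges did not overlap, but the log2 fold change of −0.32 had an adjusted p of 0.0813 from limma. FHL1 had a log2 fold change of 0.21 with an interval of −0.07 to 0.49. Among the other partners of SRF, the ternary complex factor ELK3, a repressor in the absence of ERK signals, fell from 6.0, 5.90 and 6.05 to 5.32, 5.28 and 5.19. Its log2 fold change was −0.72 (standard error 0.074, limma adjusted p = 0.00527), the only one past the threshold among the 5 measured cofactors of this second list. ELK1 had −0.13 and MRTFB 0.00, and the interval of MRTFB was −0.15 to 0.15.

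None of the 6 actins passed the threshold. ACTB, the cytoplasmic beta-actin that served as the loading reference in the study's protein measurements, read 12.48, 12.44 and 12.44 in DMSO cultures and 12.32, 12.38 and 12.44 in PD98059 cultures. Its log2 fold change was −0.07, and the 95% interval of −0.23 to 0.08 lies within the fold limit. The cytoplasmic gamma-actin ACTG1 had a log2 fold change of −0.06 with an interval of −0.24 to 0.11, and read 12.15, 12.10 and 12.15 against 11.97, 12.14 and 12.10. The groups overlapped in ACTG1 and met at 12.44 in ACTB.

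The muscle-type actins were also not separated by treatment. ACTA2, the alpha-actin of smooth muscle and myofibroblasts, read 5.89, 6.20 and 6.07 with DMSO and 5.89, 5.90 and 6.0 with PD98059, a log2 fold change of −0.12 with an interval of −0.35 to 0.10. ACTG2, the gamma-actin of visceral smooth muscle, read 6.32, 6.40 and 6.44 in controls and 6.69, 6.91 and 6.42 in treated cultures. Its treated replicates 1 and 2 were above the controls and replicate 3 lay among them, and the log2 fold change of 0.29 had an interval of −0.02 to 0.59. ACTA1, the skeletal actin, stood at 3.91, 3.97 and 4.20 against 4.07, 3.95 and 4.01. The cardiac ACTC1 was near background, at 2.88, 2.66 and 2.76 against 3.01, 2.95 and 2.85. Actin genes are very similar in their coding sequence, so probes of a cluster may read RNA of more than its own gene, and the levels of single actins are uncertain to that extent.

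The calponin family held 3 of the 5 lower genes. They are 50.0% of its 6 measured members, against 1.78% of all clusters and 2.72% of those above background. TAGLN, or transgelin, an actin-binding protein of smooth muscle and fibroblasts, read 5.80, 5.67 and 5.83 in the DMSO cultures and 4.94, 4.95 and 5.09 in the PD98059 cultures. The groups were wide apart compared with their SDs of 0.085 and 0.084, and the fold change on the log2 scale was −0.77 (standard error 0.079, limma adjusted p = 0.00527). TAGLN2, its relative in cells other than muscle, fell from 9.85, 9.93 and 9.97 to 9.06, 9.20 and 9.04, a log2 fold change of −0.82 (standard error 0.075, limma adjusted p = 0.00424). CNN1, the calponin of smooth muscle, fell from 5.66, 5.49 and 5.97 to 5.12, 5.10 and 4.93, a log2 fold change of −0.66 (standard error 0.13, limma adjusted p = 0.0425). Both TAGLN and TAGLN2 passed with every single array left out, with adjusted p up to 0.0348 and 0.0293. By contrast, CNN1 did not pass without any one of the 6 arrays, where the adjusted p was 0.0529 to 0.13, and DMSO replicate 3 was the highest of its controls.

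The remaining members of this family did not pass the threshold. CNN2, the calponin of cells other than muscle, read 6.52, 6.41 and 6.44 in controls and 6.13, 6.06 and 6.04 after treatment, with a log2 fold change of −0.38 (limma adjusted p = 0.0295) that stayed inside the fold limit. CNN3, the acidic calponin, had a log2 fold change of 0.05 with an interval of −0.40 to 0.50, and PD98059 replicate 1 stood at 6.16 while the other treated cultures stood at 5.53 and 5.54. TAGLN3, known from neurons, was near background in both groups.

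**Figure D2:**
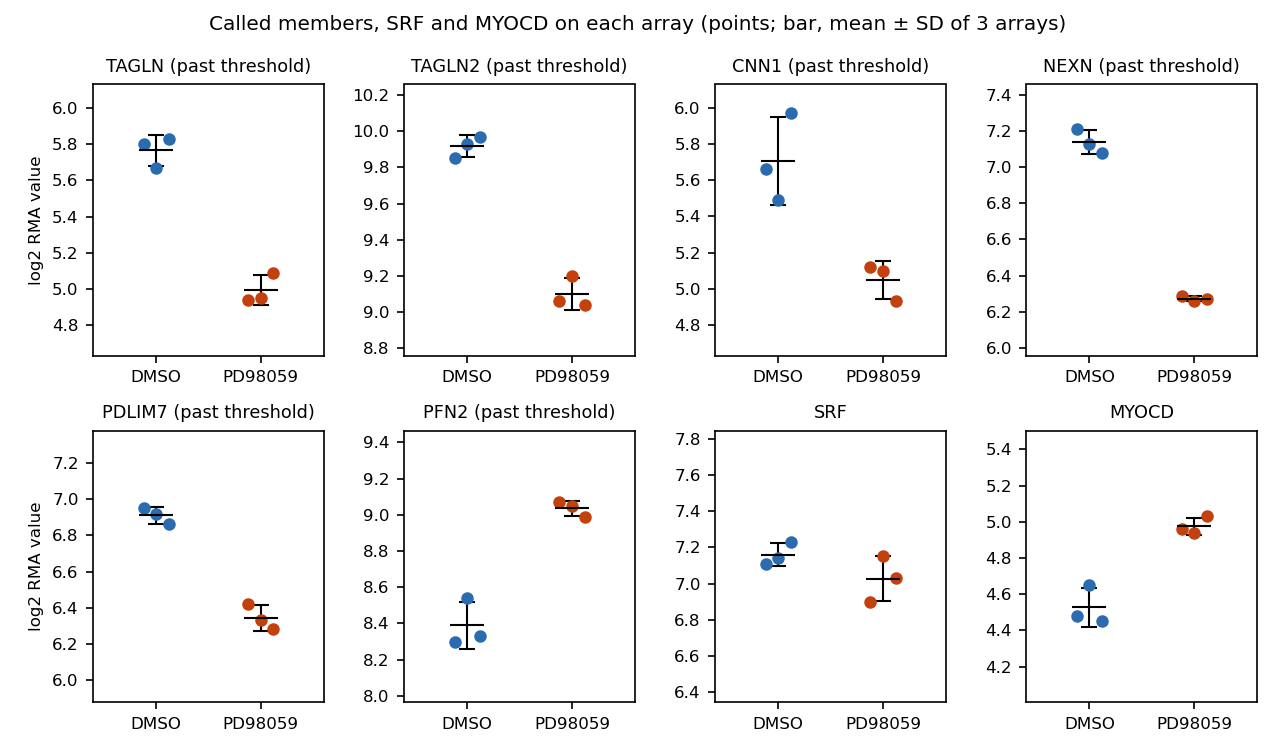
Log2 RMA values of the 6 genes past the threshold and of SRF and MYOCD on each of the 6 arrays (points), with the mean and SD of 3 arrays per group; each panel spans 1.5 log2 units around its own mean. TAGLN, TAGLN2, CNN1, NEXN and PDLIM7 were lower on every PD98059 array, PFN2 and MYOCD were higher, and the SRF groups overlapped.

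NEXN had the largest fold change of the 43 genes. NEXN encodes nexilin, a filament-binding protein of cell-matrix adhesions and of the muscle Z-disc. Its values were 7.21, 7.13 and 7.08 in controls and 6.29, 6.26 and 6.27 after PD98059, a log2 fold change of −0.87 (standard error 0.066, limma adjusted p = 0.00269). The gene passed with each single array left out, with an adjusted p up to 0.0208.

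Tropomyosins, which lie along the filament and set which proteins can bind it, had fold changes of both signs, none of which passed the threshold. On the log2 scale the fold change of TPM2 was −0.27 (adjusted p = 0.252), TPM4 −0.17 (adjusted p = 0.377) and TPM3 0.38 (adjusted p = 0.151) in limma. All PD98059 values of TPM3, 5.56, 5.97 and 5.82, were above the controls of 5.27, 5.52 and 5.41. A gene-level value combines the probes of many exons, so a change of tropomyosin isoform within a gene may not be seen here. CALD1, or caldesmon, which holds back myosin on thin filaments, read 10.38, 10.33 and 10.39 with DMSO and 10.12, 10.12 and 10.21 with PD98059. The groups did not overlap, and the log2 fold change of −0.22 had an adjusted p of 0.129 in limma. LMOD1, a filament nucleator of smooth muscle, varied most within groups, with an SD of 0.38, and ran from 4.27 to 5.04 in controls and from 4.68 to 5.32 in treated cultures.

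Non-muscle myosin II, the motor of stress fibres, had heavy chains that hardly differed between the groups. Among its regulatory light chains, MYL9 was slightly lower. MYH9 had a log2 fold change of −0.03 (interval −0.19 to 0.12) and MYH10 −0.05 (interval −0.20 to 0.09), and the groups overlapped in MYH9. In MYH10 the treated values of 8.35, 8.31 and 8.33 lay just below the controls of 8.38, 8.36 and 8.41. MYL9, a regulatory light chain whose phosphorylation switches the motor on, read 8.26, 8.22 and 8.23 in controls and 7.82, 7.90 and 7.72 after PD98059. The fold change of MYL9 was −0.42 on the log2 scale (limma adjusted p = 0.0258), which is inside the limit. Its adjusted p was 0.0554 to 0.106 with single arrays left out. The brighter regulatory light chain MYL12A, from the further lists below, read 9.22, 9.28 and 9.33 against 9.25, 9.16 and 9.23. Its log2 fold change was −0.06 (limma adjusted p = 0.665), and that of the related MYL12B was −0.23 (limma adjusted p = 0.188). MYL6, the essential light chain, stood at 9.25, 9.39 and 9.25 against 9.11, 9.20 and 9.13, with a log2 fold change of −0.15 and an interval of −0.32 to 0.02.

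A kinase and a heavy chain of smooth muscle had fold changes of opposite sign that did not pass the threshold. MYLK, the kinase that phosphorylates the regulatory light chain, read 6.62, 6.41 and 6.71 with DMSO and 6.17, 5.90 and 6.13 with PD98059. No treated value reached a control, and the log2 fold change was −0.51 (standard error 0.11, limma adjusted p = 0.0531). MYH11, the smooth muscle heavy chain, stood at 4.01, 3.57 and 3.98 in controls and at 4.28, 4.64 and 4.51 in treated cultures, a log2 fold change of 0.62 (standard error 0.15, limma adjusted p = 0.0694). Both genes passed when only clusters above the background level were tested, with adjusted p of 0.0216 for MYLK and 0.0313 for MYH11. Neither passed with the replicate block (adjusted p of 0.0632 and 0.165) or the unmoderated test (0.142 and 0.188). MYH11 was dim, and its DMSO replicate 2, at 3.57, lay below the background level of log2 3.70.

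Crosslinkers and adhesion proteins tie filaments to each other and to integrins. Of the 9 measured members, 8 had every PD98059 array below every DMSO array, as did 13.0% of all clusters and 18.3% of those above background. PDLIM7, an adaptor with PDZ and LIM domains on actin bundles, was the one that passed, with 6.95, 6.92 and 6.86 in controls and 6.42, 6.33 and 6.28 after PD98059. Its log2 fold change was −0.57 (standard error 0.07, limma adjusted p = 0.00946), and without DMSO replicate 1 the adjusted p was 0.0543. PDLIM5, a protein of the same family, came close to the fold limit, with 6.92, 6.93 and 7.06 against 6.47, 6.54 and 6.48. The log2 fold change of PDLIM5 was −0.47 (standard error 0.07, limma adjusted p = 0.0166), and with array medians subtracted it was −0.51 (adjusted p = 0.0141), past both limits.

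Other adhesion proteins had smaller fold changes. ZYX, or zyxin, which gathers at strained stress fibres, read 7.97, 7.91 and 8.06 in controls and 7.58, 7.56 and 7.55 in treated cultures, a log2 fold change of −0.42 (limma adjusted p = 0.0227). ACTN1, an alpha-actinin that crosslinks filaments, read 7.90, 7.92 and 7.94 against 7.59, 7.55 and 7.46, a log2 fold change of −0.39 (limma adjusted p = 0.027). Both lay inside the fold limit, and neither had an adjusted p under 0.05 with any single array left out, where the range was 0.0547 to 0.0911 for ZYX and 0.061 to 0.101 for ACTN1.

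The related ACTN4 stood at 10.66, 10.74 and 10.72 in controls and at 10.54, 10.61 and 10.61 in treated cultures, with a log2 fold change of −0.12. LIMA1, which stabilizes filaments, had −0.29, the integrin activator TLN1 −0.21 and the crosslinker FLNA −0.19, with limma adjusted p of 0.0932, 0.156 and 0.208. VCL, or vinculin, which couples talin to actin, was the exception in direction, with 9.88, 9.82 and 9.88 in controls and 9.96, 9.97 and 10.06 after PD98059. Its log2 fold change of 0.14 had an interval of −0.02 to 0.29.

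Among the proteins of filament turnover, 1 of the 6 passed the threshold. It was higher, and makes 16.7% of this small group, against 0.909% of all clusters and 1.33% of those above background. PFN2, a profilin that delivers actin subunits to growing filaments, rose from 8.30, 8.54 and 8.33 to 9.07, 9.05 and 8.99, a log2 fold change of 0.65 (standard error 0.085, limma adjusted p = 0.0112). It did not pass without DMSO replicate 1, DMSO replicate 3 or PD98059 replicate 2, with adjusted p of 0.057, 0.054 and 0.0517. PFN1, the widespread profilin, had a log2 fold change of 0.06 with an interval of −0.16 to 0.28.

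CFL2, the cofilin of muscle and other tissues that severs filaments, read 8.91, 8.74 and 8.81 with DMSO and 8.42, 8.37 and 8.40 with PD98059. The log2 fold change of −0.42 (limma adjusted p = 0.0249) lay inside the fold limit, and with single arrays left out the adjusted p was 0.0544 to 0.0949. CFL1 had −0.22 (adjusted p = 0.161 in limma), and WDR1, a helper of cofilin, −0.10 (adjusted p = 0.467). CAP1, which recharges actin subunits, read 10.33, 10.37 and 10.37 in controls and 10.26, 10.22 and 10.37 in treated cultures, and the groups overlapped. Of the 37 genes that did not pass, 20 had a 95% interval wholly within the fold limit on both sides, and in 17 the interval reached past it.

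**Figure D3:**
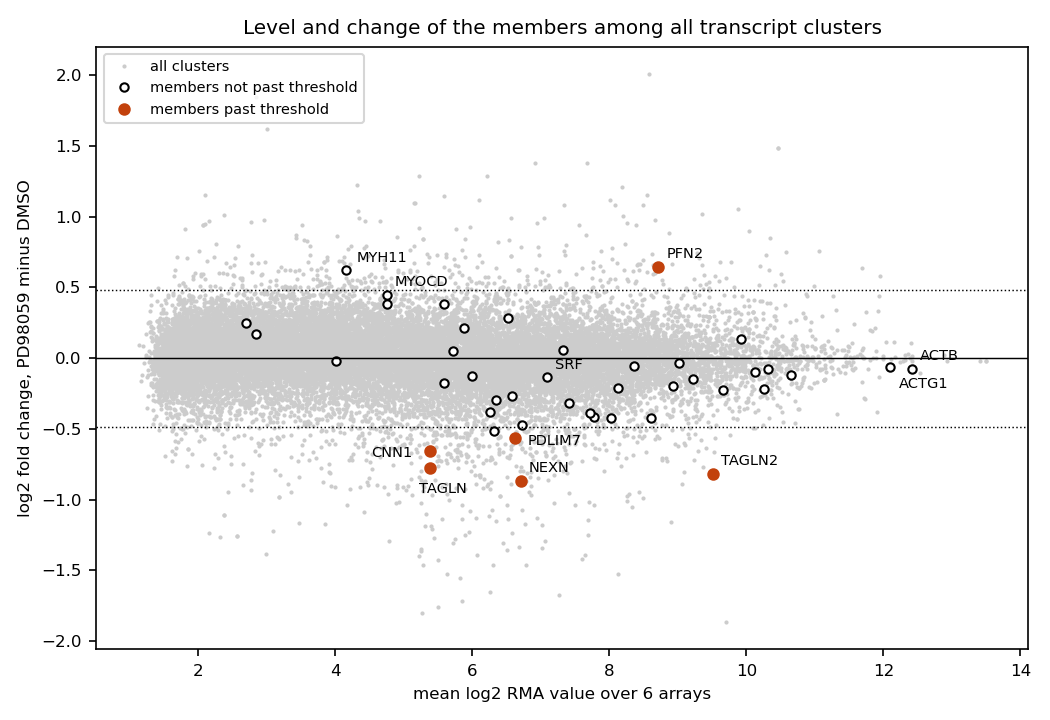
Log2 fold change (PD98059 minus DMSO) against the mean log2 RMA value over 6 arrays for all 24415 clusters (grey) and the 43 measured genes (circles; filled where past the threshold); dotted lines mark a fold of 1.4. The bright cytoplasmic actins lie near 0, at −0.07 and −0.06, and TAGLN2 and NEXN lie at −0.82 and −0.87.

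Outside these genes, 5 further lists of the actin pathway held 94 measured genes, each counted once. Of these, 7 were lower, 0 were higher and 87 did not pass in limma. The lower genes are 7.45% of these, against 1.78% of all clusters and 2.72% of those above background. At the adjusted p alone 12 were lower, or 12.8% against 2.82% and 4.34%, and 0 were higher. The median log2 fold change was −0.12, and 72 values were below 0, or 76.6% against 46.4% of all clusters and 49.2% of those above background. The lower count was 4 without DMSO replicate 1.

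Of the 18 other SRF-linked genes, 4 were lower. ANKRD1, a muscle ankyrin-repeat protein that is induced by stretch, fell from 7.80, 7.58 and 7.75 to 6.40, 6.41 and 6.45, a log2 fold change of −1.29 (standard error 0.079, limma adjusted p = 0.00156). CCN2, which is secreted and binds the matrix, fell from 8.30, 8.24 and 8.40 to 7.11, 7.02 and 7.05, by 1.25 on the log2 scale (limma adjusted p = 0.00138). These exceeded the change of each of the 43 genes in size. FBLIM1, which links filamin to adhesions, had −0.69 (limma adjusted p = 0.00641), and the fibronectin receptor subunit ITGA5 −0.50 (limma adjusted p = 0.0158). ITGA5, at a fold of 1.41, was just past the fold limit. Its result was lost without any single array other than DMSO replicate 2, with adjusted p of 0.0571 to 0.0678. It was also lost with repeated quantile normalization, at −0.48, and with the replicate block, at an adjusted p of 0.0752. DSTN and MYL12A did not pass, at −0.02 and −0.06.

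None of the 28 genes of filament nucleation, capping and severing and none of the 13 other myosins passed in limma. The subunit-binding thymosins TMSB10 and TMSB4X had log2 fold changes of −0.28 and −0.36 with adjusted p of 0.0567 and 0.0554, and MYO1D, a membrane-bound motor, had −0.09. At an adjusted p under 0.05 alone, 1 gene of each of these lists was lower, namely ARPC4 of the filament-nucleating complex at −0.31 and the motor MYO10 at −0.47, both singled out after their values were seen. Of the 32 other crosslinkers and adhesion-plaque proteins, 2 were lower. MSN, or moesin, which joins filaments to the membrane, had −0.59 (limma adjusted p = 0.00944), and SORBS3, a vinculin partner, −0.52 (limma adjusted p = 0.0153). The adjusted p of MSN was 0.0531 without DMSO replicate 1, and that of SORBS3 was 0.0527 to 0.0661 without any array other than PD98059 replicate 3. EZR had −0.30 and ILK −0.23, which did not pass. At an adjusted p under 0.05 alone, 5 of the 32 were lower, or 15.6% against 2.82% of all clusters and 4.34% of those above background. Besides MSN and SORBS3 these were FSCN1 at −0.45, LASP1 at −0.45 and TES at −0.35, also singled out after their values were seen.

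**Figure D4:**
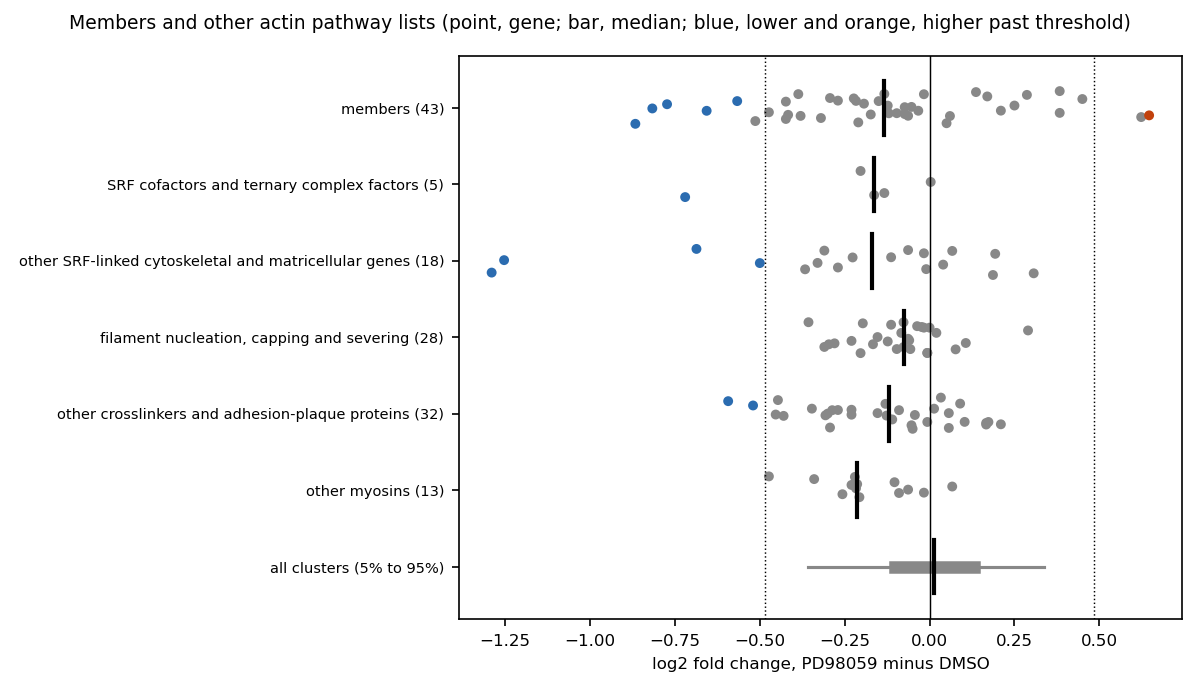
Log2 fold change (PD98059 minus DMSO) of single genes (points) in the set of 43 and in 5 further actin pathway lists, with the median of each (black bar); the last line gives the median, the middle 50% (thick) and the 5% to 95% range (thin) of all 24415 clusters. Every list has a median below 0, from −0.21 to −0.08, while the median of all clusters is 0.01.

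Markers of cell types that express contractile genes were examined beside these values. The smooth muscle and pericyte list held 8 measured genes, of which 1, CNN1, was lower and none was higher past the threshold. Its summed signal overlapped between the groups, at log2 7.93 to 8.03 with DMSO and 7.97 to 8.01 with PD98059. Fold changes were above 0 in 5 of the 8 and below 0 in 3, with a median of 0.10. In 2, MYH11 and MYOCD, every PD98059 array lay above every DMSO array, as in 12.6% of all clusters and 15.6% of those above background. In 1, CNN1, every PD98059 array lay below. Of these 8 genes, 5 belong to the 43 described here. The others included RGS5, near background, and DES, with log2 fold changes of 0.16 and −0.01. Of 5 striated muscle markers none passed in limma and 3 were near background. Fibroblast markers had a slightly lower summed signal after PD98059, log2 12.89 to 12.95 against 13.03 to 13.06, and 1 of 6, PDGFRA at −0.59, passed the threshold. All 6 had fold changes below 0, with a median of −0.19 beside −0.13 for the actin set, and in 4 every PD98059 array lay below every DMSO array. Of all clusters, 46.4% were below 0, 13.0% had every PD98059 array lower and 1.78% were lower past the threshold. Above background these shares were 49.2%, 18.3% and 2.72%. COL1A1, at −0.46, had an adjusted p of 0.0464 in limma inside the fold limit. Whether the share of such cells had a part in the lower TAGLN and CNN1 values was not tested.

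The other marker lists gave the following values. The granulosa markers were present in all cultures, and 6 of 7 were higher with PD98059, with summed signals of log2 12.18 to 12.28 and 12.97 to 13.00. By the same threshold, 0.909% of all clusters were higher and 1.78% lower, and 1.33% and 2.72% of those above background. Of 3 theca markers, CYP17A1 was near background and INSL3 was higher, at 0.61. The paper reports that PD98059 induced FSHR, FOXL2, CYP19A1, HSD17B1 and INSL3 in granulosa cells. The other raised granulosa markers were INHA at 0.85 and INHBA at 0.58. In these signals a change in the share of granulosa or theca cells cannot be told apart from a change per cell, and neither was tested. Among 4 endothelial markers 3 were near background and VWF was lower, at −0.57, and of 5 leukocyte markers none passed and 2 were near background.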

How the data were processed

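Granulosa cell RNA, from 3 cultures with DMSO and 3 with PD98059, was read on bovine gene arrays from Affymetrix. The deposited values are log2 signals per transcript cluster, which the authors obtained by RMA (background correction, quantile normalization and probe summary) in the Expression Console software, and they were used as given. A shift shared by most genes would not be seen after this normalization. A genome build for the annotation was not given in the sources used, and no coordinates or sequences are printed. The series' own value table held the same log2 values in all 146490 cells. The number of arrays limits the precision, and over all clusters the log2 fold changes had a median standard error of 0.098.

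All 24415 clusters were fitted with limma 3.58.1 (lmFit, eBayes) in R 4.3.3 with treatment as the only factor, and p-values were adjusted over all clusters. No filter on dim clusters was applied. Tables were made with Python 3.11.15 and pandas 2.3.3. On simulated data for this comparison over 24415 clusters, 39 of 50 clusters changed 1.5-fold and 49 of 50 changed 2-fold were recovered. The changed clusters were drawn only from those above background, with independent normal noise at the fitted variances. Recovery of dimmer clusters was not simulated.

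The members and lists were chosen with earlier results of these data known, so that counts over them are descriptions. Values on every array are given for members past the threshold, SRF, MYOCD, the actins and the brightest member of each role. Those of further members were added where they bear on a comparison. From each other list up to 4 genes past the threshold and 2 by level are named, and 1 list is not reported here. The alternatives were a replicate block, array medians subtracted, repeated quantile normalization, a filter at background, a variance trend, an unmoderated test, array weights, other limits, the mean of clusters, naming through RefSeq accessions of ARS-UCD2.0, and each array left out.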

Additional observations from a re-analysis of the deposited data

How the results depend on the processing

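The calls of TAGLN, TAGLN2 and NEXN held in every alternative except a fold above 2, which left 0 members lower and 0 higher. With the FDR limit alone, 11 members were lower and 2 higher, and the further lists had 12 lower and 0 higher. At 2-fold, 2 genes of those lists were lower. Over all clusters, 656 passed in the reported fit, 350 with the unmoderated test, 1110 with no fold limit and 87 with a fold above 2. Testing only clusters above background, or a variance trend, gave 2 higher members, PFN2 and MYH11. With array medians subtracted, the median log2 fold change of the members was −0.17.

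Leaving out 1 array at a time gave 3 to 4 lower and 0 to 2 higher members, a member median of −0.18 to −0.10, 4 to 6 lower genes and 0 higher in the further lists, and 271 to 491 clusters in all. The members ACTA1, CNN3 and PFN1, near 0, changed sign in such fits. ACTA1 ran from −0.075 to 0.07, CNN3 from −0.16 to 0.16 and PFN1 from −0.028 to 0.12, and MRTFB and DSTN, also near 0, changed sign in some fits too.

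Arrays with the same replicate number had deviations that correlated with r of 0.051, 0.037 and 0.038, and each array correlated best with its own number. The labels do not say what a replicate number shares, so the block was kept as an alternative. With the replicate block, 237 clusters passed, among them 3 lower and 0 higher members and 4 lower genes of the further lists. CNN1, PDLIM7 and PFN2 were then above the FDR limit, with adjusted p of 0.124, 0.0513 and 0.0568.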
